A study of Mus musculus with 6 samples.

Results

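A set of 10 genes of the growing oocyte was followed in mouse embryonic stem (ES) cells with and without vitamin C: the transcription factor genes Figla, Nobox, Sohlh1 and Sohlh2, the growth factor genes Gdf9 and Bmp15, the zona pellucida genes Zp1, Zp2 and Zp3, and the oocyte-secreted protein gene Oosp1. They were chosen by name, as the probe sets annotated with exactly 1 gene symbol that is in this list, and all 10 were measured among 19938 genes, each by a single probe set. Sohlh2 was the only member to pass the test. It was 1.63-fold higher with vitamin C, while the zona pellucida, growth factor and Oosp1 genes did not pass. The test was passed by 13.2% of all genes in either direction and by 5.75% as higher, so 1 member of 10 is near the background.

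The series held 6 Affymetrix arrays, 3 of untreated cells and 3 of cells given vitamin C for 72 hours as L-ascorbic acid 2-phosphate at 200 μg/ml. Both groups were Oct4-GiP ES cells, kept on gelatin in N2B27 medium with LIF at 1000 U/ml, the MEK inhibitor PD0325901 at 1 μM and the GSK3β inhibitor CHIR99021 at 3 μM. The comparison addresses how vitamin C changes the transcripts of ES cells in a study of Tet-dependent DNA demethylation. The labels call the replicates biological triplicates of 1 reporter line, so the values describe that line.

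FIGLA, NOBOX, SOHLH1 and SOHLH2 act in primordial and primary follicles, where they are needed for oocytes to survive and begin to grow. SOHLH1 and SOHLH2 are basic helix-loop-helix factors that can pair with each other and also act in spermatogonia, and FIGLA binds E-box sequences in the promoters of the zona pellucida genes together with a ubiquitous E protein. The oocyte then secretes GDF9 and BMP15, which signal to the surrounding granulosa cells, and the zona glycoproteins, which form the coat that sperm must bind. Many germline genes are held silent in other cells by promoter DNA methylation and by repressor complexes, and TET enzymes, which oxidise methylated cytosine, use ascorbate as a helper of their activity.

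Promoter sequences came from RefSeq (build GRCm38.p6), which held a window for 7 of the 10 members: Figla, Nobox, Sohlh1, Sohlh2, Bmp15, Zp3 and Oosp1. The 250 bases before the annotated start were used. Sohlh2 and Figla are shown with each CpG in capitals because they held the most CpGs of the 7, at 14 each, a count above that of 70.6% of the 32851 windows in the table. The Sohlh2 window lies at chr3:55181794-55182043 on the + strand, and that of Figla at chr6:86016941-86017190 on the + strand.
Sohlh2: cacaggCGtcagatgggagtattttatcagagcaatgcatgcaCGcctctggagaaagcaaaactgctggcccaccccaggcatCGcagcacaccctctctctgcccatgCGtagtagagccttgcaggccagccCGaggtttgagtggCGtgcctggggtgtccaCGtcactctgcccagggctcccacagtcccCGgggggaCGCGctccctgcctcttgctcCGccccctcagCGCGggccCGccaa
Figla: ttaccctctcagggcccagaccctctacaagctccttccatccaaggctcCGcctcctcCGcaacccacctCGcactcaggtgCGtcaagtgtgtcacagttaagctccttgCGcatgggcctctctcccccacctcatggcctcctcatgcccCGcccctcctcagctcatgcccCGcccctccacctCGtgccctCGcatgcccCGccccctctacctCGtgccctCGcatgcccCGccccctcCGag
The observed over expected CpG ratio was 0.542 for Sohlh2 and 0.651 for Figla. Sohlh1 and Nobox held 11 CpGs each, Zp3 held 5, Oosp1 held 4 and Bmp15 held 2, against a median of 6 over all windows.

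The promoters of Sohlh1 and Zp3 are shown with every E-box (CANNTG, which reads the same on both strands) in capitals, since E-boxes are the class of site that FIGLA and the SOHLH factors bind. The Sohlh1 window lies at chr2:25847249-25847498 on the - strand, and that of Zp3 at chr5:135979855-135980104 on the + strand.
Sohlh1: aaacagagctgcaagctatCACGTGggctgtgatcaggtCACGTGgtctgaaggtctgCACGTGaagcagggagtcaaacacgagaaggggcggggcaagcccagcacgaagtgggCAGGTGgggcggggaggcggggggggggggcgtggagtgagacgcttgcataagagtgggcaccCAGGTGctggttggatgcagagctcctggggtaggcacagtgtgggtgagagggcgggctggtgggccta
Zp3: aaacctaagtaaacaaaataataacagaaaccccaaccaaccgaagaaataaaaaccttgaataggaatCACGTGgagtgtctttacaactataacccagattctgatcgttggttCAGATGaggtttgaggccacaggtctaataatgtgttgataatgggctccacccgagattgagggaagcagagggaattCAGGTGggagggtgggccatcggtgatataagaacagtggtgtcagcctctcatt
All 7 member windows held CANNTG, as did 66.2% of all windows, so its presence does not set them apart. Sohlh1 held 5 copies, at 231, 211, 192, 134 and 70 bases before the start, and Zp3 held 3, at 181, 134 and 55 bases before it. Oosp1 also held 5, Figla and Nobox held 2 each, and Sohlh2 and Bmp15 held 1 each. At least 3 copies were in 12.2% of all windows and at least 4 in 3.84%. The form CACGTG, which is a special case of CANNTG and also the site of MAX-containing dimers, occurred 3 times in Sohlh1 and 1 time in Zp3. It was in 6.02% of all windows, and 0.0609% held at least 3 copies. The sequence TAATTG, searched on both strands as an element described for NOBOX, was in 7.17% of all windows and in 0 of the 7. No other form of a NOBOX element was searched. These matches describe letters in a short window and not measured binding.

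The arrays measured signal on a log2 scale after RMA, a method that corrects background, equalises the distributions of the arrays and gives 1 value per probe set. A value ranks the arrays for 1 probe set, and values of different probe sets are not directly comparable. Means over a gene list and positions against the arrays' lower quartiles are therefore only a rough guide to level. The arrays correlated at 0.995 to 0.996 within a group and at 0.989 to 0.990 between groups over the 19938 genes. Mean signal over 10 ES cell markers, of which 4 rose, lay at 10.45 to 10.48 on untreated and 10.58 to 10.60 on vitamin C arrays, and over 15 granulosa and theca cell markers, the somatic cells around the oocyte, at 5.22 to 5.35 and 5.29 to 5.35. Of 16 fibroblast markers, 8 were called higher and 1 lower in these libraries, with a mean signal of 5.66 to 5.77 untreated and 6.20 to 6.23 with vitamin C. Of 14 primitive endoderm markers 5 rose and none fell, and of 10 trophectoderm markers 1 rose and 2 fell. Among all genes, 13.2% were called in either direction and 5.75% were called higher. None of the fibroblast markers can be read as 0 on this scale, and the part of such cells in the results below was not tested. These are bulk samples, so a change in the share of cells that express a gene and a change in RNA per cell cannot be told apart.

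**Figure D1:**
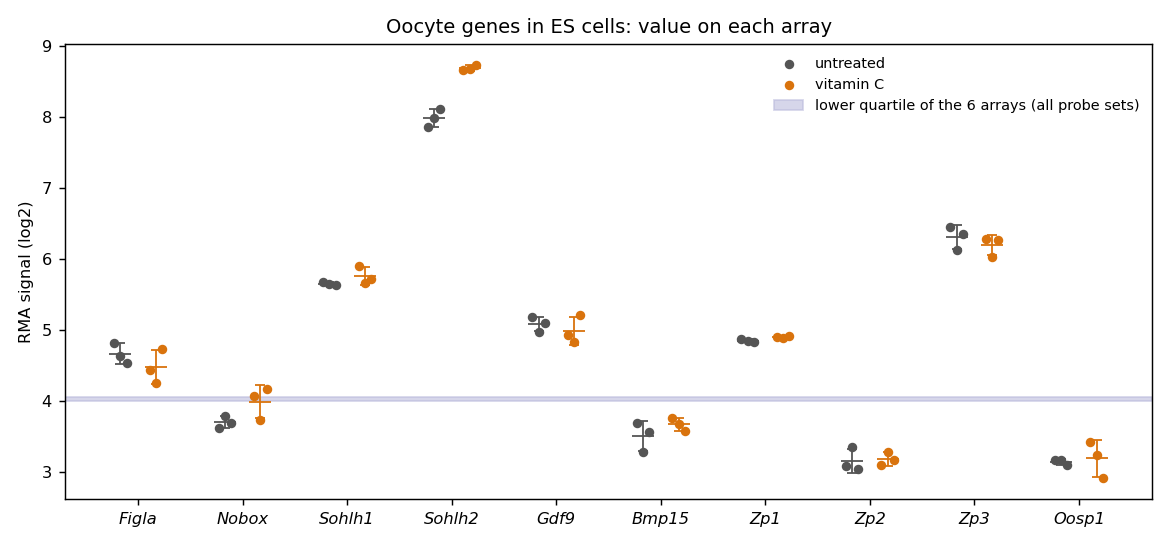
RMA signal (log2, vertical axis) of the 10 members on each array, with untreated arrays in grey and vitamin C arrays in orange. Points are arrays, the horizontal mark and bar are the group mean and SD (n = 3), and the band is the range of the arrays' lower quartiles over all probe sets. The 3 vitamin C points of Sohlh2 (8.66 to 8.73) all lie above its untreated points (7.85 to 8.11), while Bmp15, Zp2 and Oosp1 lie under the band on all arrays.

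Of the 4 transcription factor genes, Sohlh2 rose and the other 3 did not pass. Sohlh2 read 7.85, 7.98 and 8.11 on the untreated arrays and 8.66, 8.67 and 8.73 on the vitamin C arrays. All vitamin C arrays were higher than all untreated ones, and the vitamin C arrays were also closer together. The group means were 7.98 ± 0.13 and 8.69 ± 0.041 (SD, n = 3 each), and they differed by 0.71 ± 0.08 (SE; limma with Benjamini-Hochberg adjustment over all genes, adjusted p = 0.00215; 95% interval 0.52 to 0.89). Among all genes 13.2% passed at an adjusted p under 0.05 and 5.75% passed as higher, so 1 passing member of 10 is near the background. The 1147 genes that rose had a median difference of 0.43, and 201 of them had a larger difference than Sohlh2. Every alternative setting kept the call, with adjusted p-values of 4.18e-06 to 0.0239 and differences of 0.64 to 0.77. With fibroblast markers moving as given above (8 of 16 up), their part in the Sohlh2 value was not tested.

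Sohlh1, the partner of Sohlh2, read 5.67, 5.65 and 5.63 untreated and 5.90, 5.66 and 5.72 with vitamin C. The groups overlapped at vitamin C replicate 2, while replicates 1 and 3 stood above all untreated arrays. Its log2 difference was 0.11 ± 0.08 (SE, limma adjusted p = 0.386; 95% interval -0.07 to 0.29).

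Nobox, an oocyte homeobox gene, read 3.62, 3.79 and 3.69 untreated and 4.07, 3.73 and 4.17 with vitamin C. Vitamin C replicates 1 and 3 stood above all untreated arrays and replicate 2 stood among them. The difference was 0.29 ± 0.12 (SE, limma adjusted p = 0.157, unadjusted p = 0.0426; 95% interval 0.01 to 0.57). An unadjusted limma p under 0.05 was found for 5777 of the 19938 genes and 2 of the 10 members. Without vitamin C replicate 2 the Nobox difference was 0.42 and passed (adjusted p = 0.0323). Its signal was under the arrays' lower quartile (3.99 to 4.05) on 4 of 6 arrays, where array differences are in general compressed.

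Figla, the activator of the zona genes, read 4.82, 4.63 and 4.54 untreated and 4.43, 4.26 and 4.73 with vitamin C. The groups overlapped, with vitamin C replicate 3 within the untreated range. The difference was -0.19 ± 0.13 (SE, limma adjusted p = 0.386; 95% interval -0.49 to 0.12).

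**Figure D2:**
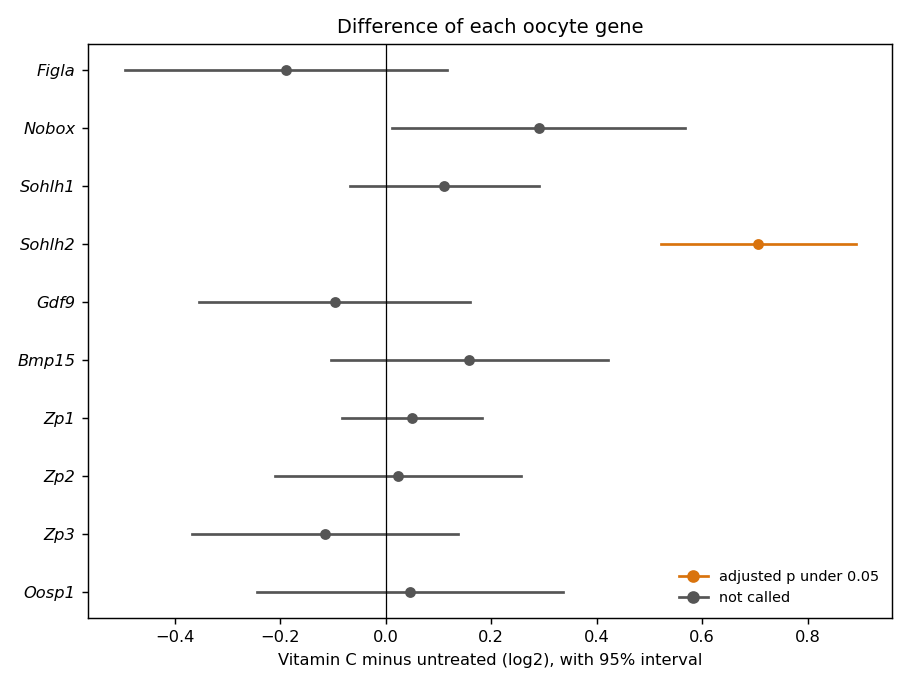
Difference of each member (vitamin C minus untreated, log2, horizontal axis), with points for the mean difference and lines for the 95% limma interval. Sohlh2 at 0.71 is the only member called at an adjusted p under 0.05, and the interval of Nobox (0.01 to 0.57) is the only other one that does not reach 0. Among all 19938 genes, 13.2% were called and 5777 had an unadjusted limma p under 0.05.

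Neither growth factor gene passed. Gdf9 read 5.18, 4.97 and 5.10 untreated and 4.92, 4.83 and 5.21 with vitamin C, where replicate 3 was the highest array of all. The groups overlapped, and the difference was -0.10 ± 0.11 (SE, limma adjusted p = 0.615; 95% interval -0.35 to 0.16). The gene models of Gdf9 and Uqcrq, a subunit gene of respiratory complex III, overlap at their ends in the reference, and Uqcrq differed by 0.21 ± 0.07 (SE, adjusted p = 0.0890). Bmp15, the X-linked relative of Gdf9, read 3.69, 3.28 and 3.56 untreated and 3.76, 3.68 and 3.57 with vitamin C. Its groups overlapped too, at 0.16 ± 0.11 (SE, limma adjusted p = 0.400; 95% interval -0.10 to 0.42). Bmp15 lay under the lower quartile on all 6 arrays.

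None of the 3 zona pellucida genes passed the limma test, and 0 of 3 had an unadjusted p under 0.05. Over the 19938 genes tested, 5777 had such a p. Zp3, which encodes a main structural glycoprotein of the zona, read 6.45, 6.12 and 6.35 untreated and 6.28, 6.03 and 6.26 with vitamin C. Each group had its lowest value in replicate 2, and the groups overlapped. The difference was -0.11 ± 0.11 (SE, adjusted p = 0.534; 95% interval -0.37 to 0.14). Zp2, whose product is cleaved after fertilisation to block further sperm binding, read 3.08, 3.35 and 3.04 untreated and 3.09, 3.28 and 3.17 with vitamin C. It lay under the lower quartile on all 6 arrays, and its difference was 0.02 ± 0.10 (SE, adjusted p = 0.906; 95% interval -0.21 to 0.26).

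Zp1, which crosslinks the zona filaments, read 4.87, 4.85 and 4.82 untreated and 4.90, 4.88 and 4.91 with vitamin C. All vitamin C values were above all untreated ones, by a small margin. Such separation in either direction occurred in 35% of all genes and in 2 of the 10 members, Zp1 and Sohlh2. The difference of Zp1 was 0.05 ± 0.06 (SE, limma adjusted p = 0.611; 95% interval -0.08 to 0.18), and it turned to -0.03 when the gene table was quantile-normalized again.

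Oosp1, which encodes a small secreted protein of oocytes, read 3.17, 3.17 and 3.09 untreated and 3.42, 3.23 and 2.91 with vitamin C. The vitamin C arrays spread on both sides of the untreated ones (SD 0.26 against 0.044), all under the lower quartile. The difference was 0.05 ± 0.12 (SE, limma adjusted p = 0.846; 95% interval -0.24 to 0.34). Its measured neighbours on the chromosome are its relatives Oosp2 and Oosp3, which differed by -0.06 ± 0.18 and 0.04 ± 0.09 (SE, adjusted p = 0.849 and 0.834). The 9 members other than Sohlh2 had differences between -0.19 and 0.29 with a median of 0.05, against a median of 0.01 over all genes.

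The gene next to Sohlh2 rose as well. Ccdc169, a coiled-coil gene that lies before Sohlh2 on the same strand without overlap in the reference, read 4.86, 5.04 and 5.09 untreated and 5.89, 6.06 and 6.15 with vitamin C. Its groups did not overlap, and it was 2.05-fold higher at a log2 difference of 1.03 ± 0.09 (SE, limma adjusted p = 0.000939). RefSeq gave 2 promoter windows for Ccdc169, with 0 and 3 CpGs. The Sohlh2 window shown above held 14.

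The rise did not pass in the measured genes farther out. Before Ccdc169, Spg20, which encodes spartin, differed by 0.03 ± 0.11 (SE, limma adjusted p = 0.867) and the germ-cell cyclin gene Ccna1 by -0.29 ± 0.18 (SE, adjusted p = 0.337). After Sohlh2, the kinase gene Dclk1 differed by 0.13 ± 0.11 (SE, adjusted p = 0.490), the noncoding Gm9831 by 0.20 ± 0.07 (SE, adjusted p = 0.119) and the neuronal trafficking gene Nbea by 0.28 ± 0.09 (SE, adjusted p = 0.0898). The vitamin C arrays of Gm9831 and Nbea lay above the untreated ones without overlap, and 35% of all genes separated in either direction. Across the members, 20 measured genes flank them directly, of which 2 rose, 1 fell and 17 did not pass. Among all genes 13.2% passed in either direction, so these counts are near the background. Besides Ccdc169, Nudt10 beside Bmp15 rose by 0.65 ± 0.16 (SE, adjusted p = 0.0385), from an untreated mean of 3.57 under the lower quartile, and Dusp11 beside Figla fell by 0.37 ± 0.08 (SE, adjusted p = 0.0201). The call of Nudt10 was lost without untreated replicate 2 or 3 or any vitamin C array (adjusted p = 0.0531 to 0.107), and that of Dusp11 without replicate 1 or 3 of either group (0.0550 to 0.0680). The flanking genes were taken up after the member values were seen.

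**Figure D3:**
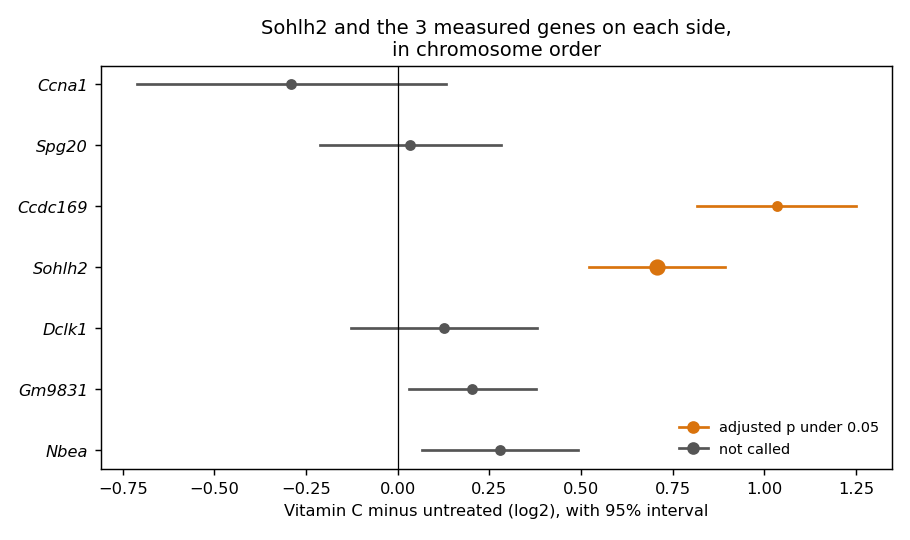
Difference (vitamin C minus untreated, log2, horizontal axis) of Sohlh2 and the 3 measured genes on each side of it in chromosome order (vertical axis), with 95% limma intervals. Ccdc169 (1.03) and Sohlh2 (0.71) are called, and the genes on either side of this pair are not.

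Other regulators of oogenesis and the partners of the 4 factors moved in both directions. Among 15 such genes, 4 passed as higher and 2 as lower while 9 did not pass, which is 40.0% called against 13.2% of all genes (median difference 0.02). Stra8, the retinoic-acid-induced gene of meiotic entry, rose by 1.10 ± 0.10 (SE, limma adjusted p = 0.000842), and Taf4b, a TFIID subunit gene needed for oocyte reserve, went from 7.20 ± 0.13 to 7.82 ± 0.087 (SD, n = 3 each; 0.62 ± 0.09 SE, adjusted p = 0.00518). Kit, the receptor through which oocytes and spermatogonia receive growth signals and a known SOHLH target, rose by 0.44 ± 0.06 (SE, adjusted p = 0.00645), and the zinc-finger regulator gene Yy1 rose by 0.36. The 2 that fell were Ybx2 (-0.39), which encodes a germ-cell RNA-binding protein, and Tcf4 (-0.32), which encodes an E protein. Of the other E protein genes, which supply partners for FIGLA, Tcf3 differed by -0.05 (adjusted p = 0.632) and Tcf12 by 0.22 (adjusted p = 0.102). Lhx8, a LIM homeobox gene of early oocytes, differed by 0.15 (adjusted p = 0.431). The call of Yy1 was lost without replicate 1 or 2 of either group (adjusted p = 0.0507 to 0.0576) and that of Tcf4 without any untreated array or vitamin C replicate 3 (0.0504 to 0.0591). Ybx2 lost its call without replicate 1 or 3 of either group (0.0605 to 0.0806).

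Most later oocyte products did not pass. Among 34 oocyte and maternal-effect genes, 4 passed as higher and 1 as lower while 29 did not pass, which is 14.7% called against 13.2% of all genes. Nlrp14 went from 5.46 ± 0.17 to 6.38 ± 0.14 (SD, n = 3 each; 0.92 ± 0.11 SE, limma adjusted p = 0.00249). Nlrp4f rose by 0.87 ± 0.10 (SE, adjusted p = 0.00288), and Khdc3, a gene of the subcortical maternal complex, by 0.84 ± 0.10 (SE, adjusted p = 0.00296). Ooep and Tle6, which encode other components of that complex, differed by -0.19 (adjusted p = 0.0867) and -0.28 (adjusted p = 0.197). Tcl1, a maternal cofactor of AKT also expressed in ES cells, fell by 0.73 ± 0.12 (SE, adjusted p = 0.00828). Dppa3, a maternal factor that shields methylated DNA in the zygote, passed at 0.25 ± 0.06 (SE, adjusted p = 0.0350) and missed the threshold whenever 1 of the 6 arrays was left out (0.0745 to 0.102). Tle6 passed without untreated replicate 2 (-0.44, adjusted p = 0.0207).

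The pathway of GDF9 and BMP15 was counted through convertases, receptors, SMADs, antagonists and cumulus targets. Among 23 genes, 4 passed as higher, none as lower, and 19 did not pass (17.4% called against 13.2% of all genes, median difference 0.12). The cumulus matrix gene Tnfaip6 went from 4.87 ± 0.20 to 5.81 ± 0.092 (SD, n = 3 each; 0.95 ± 0.11 SE, limma adjusted p = 0.00233). The BMP effector gene Smad1 rose by 0.41 ± 0.06 (SE, adjusted p = 0.00771), the inhibitory SMAD gene Smad7 by 0.54 ± 0.09 (SE, adjusted p = 0.00823) and the activin antagonist gene Fst by 0.33 ± 0.08 (SE, adjusted p = 0.0341), the last of which kept its call only when vitamin C replicate 3 was the array left out (0.0680 to 0.0983 without each other array). Of 11 other genes with a zona pellucida domain, 9 did not pass (18.2% called against 13.2% of all genes). The TGF-β co-receptor genes Eng (0.50 ± 0.07 SE, adjusted p = 0.00420) and Tgfbr3 (0.35 ± 0.07 SE, adjusted p = 0.0244) rose. Tgfbr3 lost its call without any array but untreated replicate 1 (0.0668 to 0.0710).

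Among 16 early germ cell genes, 8 passed as higher, none as lower, and 8 did not pass (50.0% called against 13.2% of all genes, median difference 0.23). Those that passed included Piwil2 (0.63), Mael (0.74) and Tex101 (0.92) beside Dazl (2.21). Kit and Dppa3 stand in this list as well as in those above, and the difference between the lists was not tested. Of the 15 granulosa and theca cell markers only Star, the cholesterol carrier of steroid synthesis, rose (0.52 ± 0.11 SE, limma adjusted p = 0.0244), and 14 did not pass (6.67% called). Its call was lost without any array but untreated replicate 1 (0.0548 to 0.0771).

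**Figure D4:**
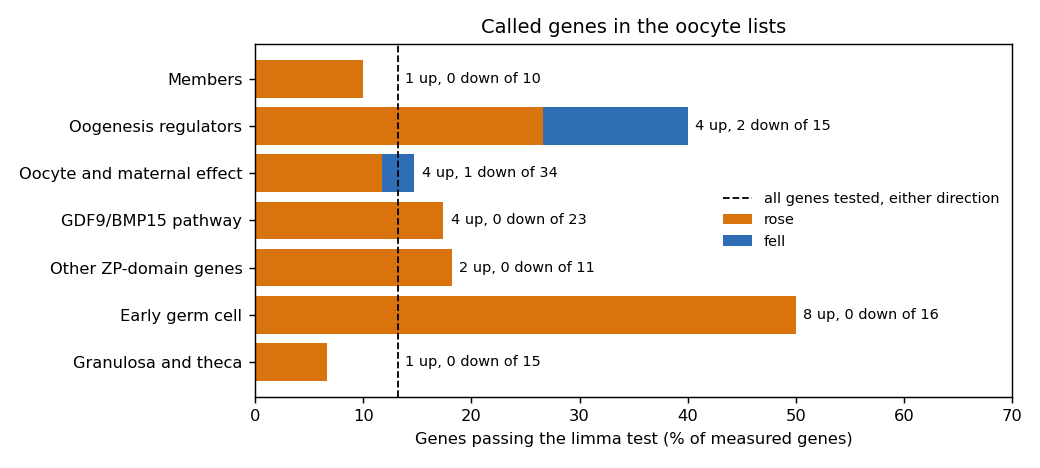
Share of measured genes that passed the limma test in each list (horizontal axis, percent), split into rises (orange) and falls (blue), with the dashed line at 13.2% for all genes tested. The members (1 of 10) stand left of the line and the early germ cell genes (8 of 16) right of it. The lists were chosen with earlier results of these data known, and the difference between them was not tested.

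Over the 6 arrays, the genes whose values correlated most closely with those of Sohlh2 were Pnpt1, Tmem231, Stra8, Mov10l1 and Polr2l, with Pearson r of 0.997 to 0.998. In all, 518 genes had an r above 0.95. The 6 points fall into the 2 groups that the treatment makes, so a high r follows for many genes that rose.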

How the data were processed

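The authors deposited log2 values for 35557 probe sets on 6 arrays; the submitters' processing notes name RMA, and the log2 scale was inferred from the range of the values. For RMA, the software and probe-set level were not given in the sources used here. RMA makes array distributions alike, so a shift common to every gene cannot be seen. The platform annotation gave 1 symbol for 21789 probe sets, several for 1621 and none used here for 12147, and 21698 matched the GRCm38.p6 gene table by gene ID. For 999 genes with several probe sets, the one with the highest mean was used. Groups came from the titles. Vitamin C minus untreated was tested with limma 3.58.1 (lmFit and eBayes, R 4.3.3) on all 19938 genes, with Benjamini-Hochberg adjustment, and called at an adjusted p under 0.05. The script was tested on simulated data. Detection calls were not used, and precision is limited by the small number of arrays.

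The members and gene lists were chosen with earlier results of these data known. The rule for names took all members, up to 4 called genes of each list by smallest p, Pou5f1, Nanog, Sox2 and Dazl, with the ES cell, fibroblast, primitive endoderm and trophectoderm lists given as counts, and the 5 genes most correlated with the member of smallest p. Others, namely Tcf3, Tcf12, Tcf4, Ybx2, Lhx8, Ooep, Tle6, Dppa3 and the flanking genes, were chosen after their values were seen. Pou5f1 (-0.12), Nanog (0.29) and Sox2 (0.13, log2 differences) served with other markers to check the ES cell label. Alternatives changed the spread model, normalization, dim-gene filter, probe-set choice, weights, threshold, fold minimum, pairing and arrays included. Figures were made with matplotlib 3.10.9.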

Additional observations from a re-analysis of the deposited data

How the results depend on the processing

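Across the 17 alternatives, Sohlh2 stayed higher and called in all 17, with differences of 0.64 to 0.77. The number of members called was 1 in every alternative except without vitamin C replicate 2, where Nobox made it 2 (1 to 2 with 1 array left out). The filter on dim genes removed Figla, Nobox, Bmp15, Zp2 and Oosp1, so it gave no value for them.

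The count over all genes, 2623, moved to 4151 with a trended and robust spread model, 1545 without moderation, 4096 at a threshold of 0.10, 395 with a fold minimum of 1.2, and 1483 to 1721 with 1 array left out. With the replicate number as a block it was 1723 and Sohlh2 kept its call (adjusted p = 0.00971). Over all genes, same-numbered arrays did not deviate together from their group means (correlations 0.052, 0.01 and -0.024). The titles give these arrays only a shared number, and whether they share a culture or batch was not tested. Directions turned for small differences that passed nowhere: with repeated quantile normalization Zp1 (-0.034) and Zp2 (-0.0018), and with 1 array left out Zp2 (-0.036 to 0.12), Oosp1 (-0.071 to 0.19), Spg20 (-0.046 to 0.11), Oosp2 (-0.25 to 0.055) and Oosp3 (-0.048 to 0.10). Of the 31 called genes named in the text, 20 lost their call with the fold minimum, a stricter test by construction, and 8 with the block. Without moderation 7 lost it, with all probe sets tested 7, and with 1 array left out 6 to 10. Tcf12 passed with repeated quantile normalization (0.28), and Pou5f1 (-0.12), Sox2 (0.13), Uqcrq (0.21) and Ooep (-0.19) passed with the trended model. The cause of the other changes was not tested.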
